A study of Homo sapiens with 6 samples.

Results

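The genes of transforming growth factor beta (TGF-β) and bone morphogenetic protein (BMP) signaling were followed in KNS42 cells depleted of the RNA-binding protein MSI1. They comprised 48 genes, chosen by name from the 58174 genes of the deposited expression table: ligands, secreted antagonists, latent TGF-β binding proteins, receptors, SMADs, transcriptional repressors, ubiquitin ligases and the ID genes. KNS42 cells, an established line from a pediatric glioblastoma, were grown in DMEM with serum. Cells received either a control siRNA (siC, 3 libraries) or siRNAs directed against MSI1 (siMSI1, 3 libraries) and were harvested after 72 h for polyA RNA sequencing. Both groups were thus transfected cells of 1 line, and effects of the siRNAs other than through MSI1 were not tested. Nothing in the labels states that the libraries came from separate cultures, so p-values measure the spread between these libraries only.

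TGF-β and BMP ligands are secreted dimers that bring type I and type II receptor kinases together at the cell surface. The type I kinase then phosphorylates receptor SMADs, SMAD2 and SMAD3 mainly for TGF-β and activin and SMAD1, SMAD5 and SMAD9 for BMPs, which join SMAD4 and enter the nucleus. Many genes induced in this way, such as SMAD6, SMAD7, BAMBI and SKIL, act back on the pathway as inhibitors, and the ID genes are classical BMP targets. In glioma, TGF-β is known for supporting stem-like cells and invasion, and BMPs for promoting astrocytic differentiation.

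Values are FPKM, reads scaled to gene length and to the size of the library. The length is 1 value per gene and was not checked against the transcripts expressed in these cells. Levels can thus be compared only roughly between genes, and "most abundant", sums and ratios across genes refer to FPKM. SMAD3, for example, had 1503 to 2072 reads and SMAD7 918 to 1276, although SMAD7 had the higher FPKM. The depth on genes was 15018417, 18024080 and 14448513 reads for the siC libraries and 14379126, 13087025 and 14700593 reads for the siMSI1 libraries. MSI1 itself stood at 63.7, 61.9 and 66.9 FPKM in siC, against 12.1, 12.3 and 11.2 FPKM in siMSI1. The knockdown was therefore seen in every library, with 18.5% of the siC mean remaining.

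Upon MSI1 knockdown, TGFBR2, BAMBI, TGFB3, SMAD6, ID1 and ID3 rose and LTBP1 fell. In bulk RNA, fewer cells of a type and less RNA per cell cannot be told apart. Of the 48 genes, 35 had a mean of at least 0.5 FPKM over the 6 libraries and were tested, and 13 were below this level. These 7 changed genes (20% of the tested members) were past an adjusted p-value of 0.01 in limma (Benjamini-Hochberg over the 15069 genes tested), beside 11.0% of all tested genes. In the separate directions, 5.15% of all tested genes were higher and 5.83% were lower, beside 6 and 1 of the 35 members. The members and the further lists below were chosen with earlier results of these data known, so their shares are no test of enrichment. The median log2 fold change, always given as siMSI1 over siC on the log2(FPKM + 0.1) scale, was 0.20 over the tested members and 0.00 over all tested genes. At an adjusted p-value of 0.05, 19 members (15 higher, 4 lower) passed in limma, 54.3% of those tested against 25.1% of all tested genes. The siMSI1 values lay entirely above the siC values for 18 members and entirely below for 4, together 62.9% against 42.8% of all tested genes. The number of members past 0.01 was 15 (12 higher, 3 lower) when limma's voom was run on the recovered reads, a fit that called 2690 of the 15069 genes against 1655 without it, with TGFBR1 and BMPR1A then lower too and LTBP3, LTBP4, BMPR1B, SMAD9, TGIF1 and SMURF1 higher. It was 5 or 6 when any single library was left out, where 528 to 1603 of all genes were past the threshold. The 1603 came from leaving out siMSI1 replicate 3, and the other such fits gave 528 to 888.

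**Figure D1:**
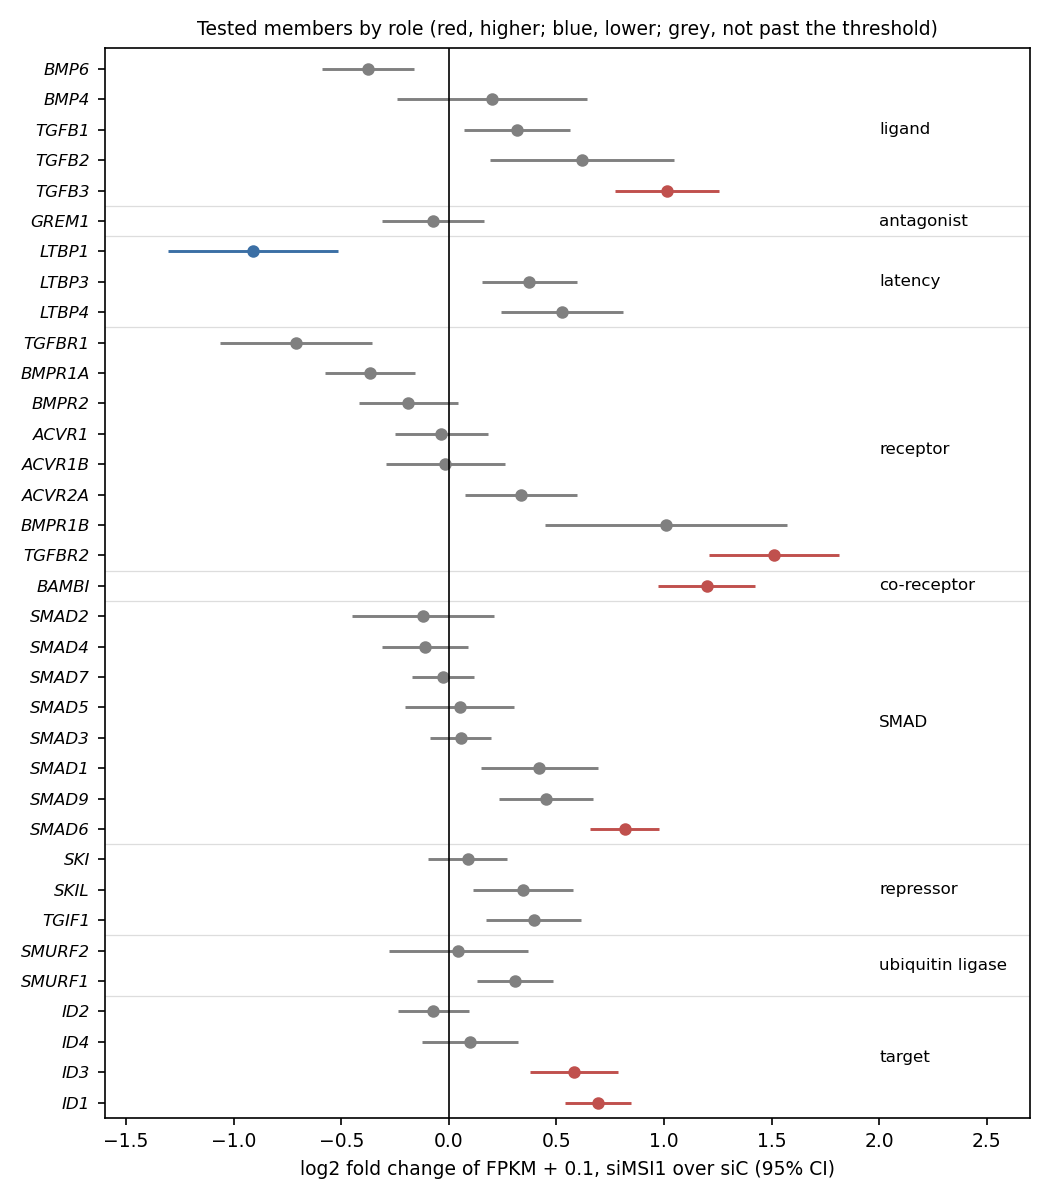
Log2 fold change (x axis, siMSI1 over siC, log2 of FPKM + 0.1) of the 35 tested members, 1 line per gene grouped by role, with the 95% confidence interval of limma as a bar. Red marks the 6 genes that rose, blue the 1 that fell and grey the 28 that were not past the threshold.

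**Figure D2:**
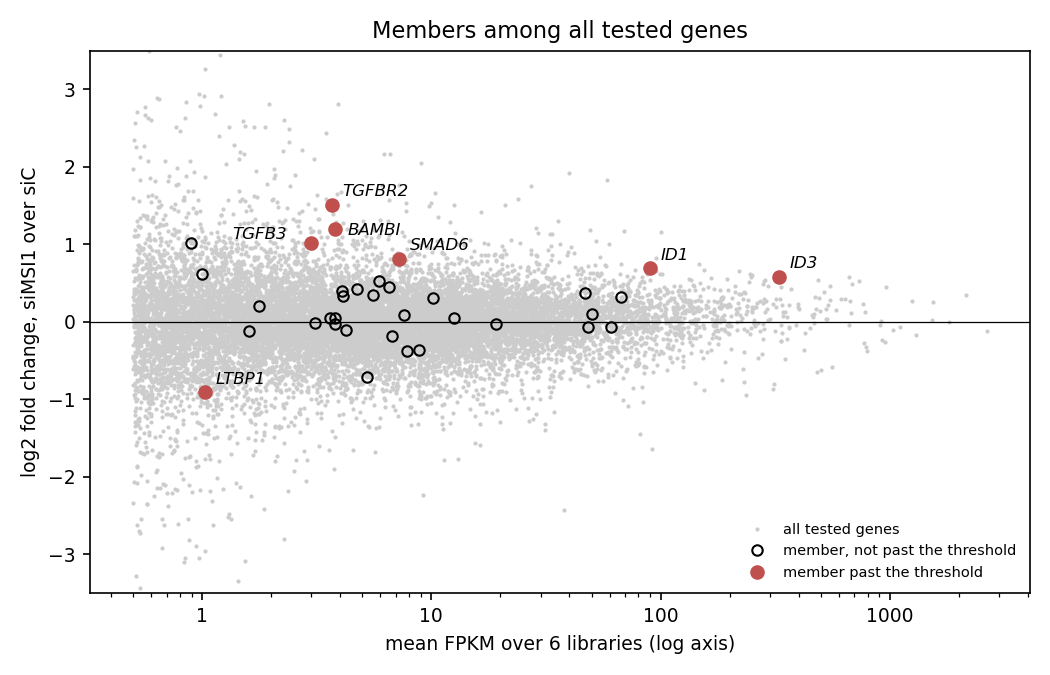
Log2 fold change (y axis, siMSI1 over siC) against mean FPKM over the 6 libraries (x axis, log scale) for the 15069 tested genes in grey, with the members as circles. The 7 members past the threshold are filled and named, and 9 genes, no member among them, lie outside the y axis. ID1 and ID3 lie far to the right, with means of 90.2 and 329.6 FPKM, and TGFBR2, BAMBI, TGFB3 and LTBP1 lie to the left, below 4 FPKM.

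Among the ligands, TGFB3, an isoform of the TGF-β cytokine, rose. Its level was 2.02, 1.78 and 2.07 FPKM in siC and 4.004, 4.21 and 3.93 FPKM in siMSI1, resting on 146 to 158 and 271 to 290 reads. The groups were well apart, with a log2 fold change of 1.01 (SE 0.105, adjusted p = 0.000727 in limma). TGFB1, the most abundant ligand, was at 60.1, 54.3 and 64.1 FPKM in siC, against 71.4, 66.5 and 85.3 FPKM in siMSI1. Its 3 siMSI1 values lay above the siC values, but the log2 fold change of 0.32 missed the threshold (95% confidence interval 0.07 to 0.56, adjusted p = 0.0641 in limma). TGFB2, at 0.688 to 0.803 FPKM in siC and 1.07 to 1.34 FPKM in siMSI1, missed it as well (log2 fold change 0.62, adjusted p = 0.0440 in limma).

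The 3 TGF-β isoforms together were at 62.2 ± 5.00 FPKM in siC and 79.7 ± 9.68 FPKM in siMSI1 (SD, n = 3). TGFB3 took 3.14% ± 0.0645 of this sum in siC and 5.14% ± 0.764 in siMSI1, so that TGFB1 made up most of the TGF-β mRNA in both groups. These sums and the gene pairs set side by side below were picked after the values were seen and are given without a test.

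Of the BMP ligands, BMP6 was the most abundant, with 8.04, 8.93 and 9.50 FPKM in siC and 7.32, 6.56 and 6.44 FPKM in siMSI1. The groups did not overlap, and its log2 fold change of −0.38 missed the threshold (adjusted p = 0.0217 in limma). BMP6 overlaps TXNDC5 on the opposite strand, which was higher in siMSI1 by 0.97 on the log2 scale (adjusted p = 0.00526 in limma), and whether reads were counted by strand is not given in the sources used here. BMP4, which promotes differentiation of glioma stem-like cells, lay at 1.42 to 1.99 FPKM in siC and 1.63 to 2.35 FPKM in siMSI1 with overlapping groups.

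TGFB3 lies on chromosome 14 (75958097 to 75983011, minus strand, GRCh38) and overlaps IFT43 on the other strand. IFT43 was at 3.69 FPKM in siC and 4.16 FPKM in siMSI1, with a log2 fold change of 0.15 that missed the threshold (adjusted p = 0.436 in limma). The antisense transcript of the locus, TGFB3-AS1, was at 0.159 and 0.241 FPKM.

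Latent TGF-β binding proteins tether the inactive TGF-β complex to the extracellular matrix. LTBP1, on chromosome 2 (32946953 to 33399509, plus strand), was the 1 member that fell past the threshold, from 1.35, 1.30 and 1.49 FPKM in siC to 0.713, 0.656 and 0.694 FPKM in siMSI1. The siMSI1 mean was 49.8% of the siC mean, with a log2 fold change of −0.91 (SE 0.171, adjusted p = 0.00797 in limma). The gene is large and lowly expressed, its siC libraries holding 148 to 173 reads and its siMSI1 libraries 63 to 77. This call was lost when any of the 6 libraries was left out (adjusted p = 0.0152 to 0.0385 in limma), with the fold change still negative. LTBP3, the most abundant of the family, was at 40.5, 37.8 and 43.7 FPKM in siC, against 52.5, 47.4 and 58.8 FPKM in siMSI1. Its groups were separate, and the log2 fold change of 0.37 missed the threshold (adjusted p = 0.0245 in limma). LTBP4 had 4.52 to 5.28 FPKM in siC and 6.34 to 8.21 FPKM in siMSI1 (log2 fold change 0.53, adjusted p = 0.0181 in limma). LTBP1 made up 2.93% ± 0.0445 of the summed FPKM of the 4 LTBP genes in siC and 1.138% ± 0.0998 in siMSI1 (SD, n = 3).

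GREM1, a secreted BMP antagonist, was the 1 tested antagonist among the 48 members. It was at 50.7, 52.8 and 44.7 FPKM in siC, against 49.0, 51.0 and 41.1 FPKM in siMSI1. The groups overlapped, and the 95% confidence interval of its log2 fold change ran from −0.31 to 0.16. GREM1 was thus among the abundant members, while noggin (NOG), chordin (CHRD) and follistatin (FST) were near 0.

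TGFBR2, the type II receptor for TGF-β, had the largest fold change of the 35 tested members. Its level was 2.11, 1.75 and 1.74 FPKM in siC and 6.26, 4.86 and 5.43 FPKM in siMSI1, from 118 to 149 and 300 to 434 reads. The lowest siMSI1 library exceeded the highest siC library, and the siMSI1 mean was 295% of the siC mean. The log2 fold change was 1.51 (SE 0.130, 95% confidence interval 1.21 to 1.81, adjusted p = 0.000429 in limma). TGFBR2 lies on chromosome 3 (30606601 to 30694142, plus strand).

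TGFBR1, the type I partner of TGFBR2, differed in the other direction without passing the threshold. It was at 6.27, 7.52 and 5.82 FPKM in siC, against 3.98, 4.70 and 3.25 FPKM in siMSI1. The groups did not overlap, and the log2 fold change was −0.71 (SE 0.152, adjusted p = 0.0134 in limma). The ratio of TGFBR2 to TGFBR1 was 0.337, 0.233 and 0.300 in siC and 1.57, 1.03 and 1.67 in siMSI1. TGFBR1 thus had the higher FPKM in each siC library. TGFBR2 was higher in siMSI1 replicates 1 and 3, while both were close in siMSI1 replicate 2 (4.86 FPKM for TGFBR2 and 4.70 FPKM for TGFBR1).

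The BMP type I receptors BMPR1A and BMPR1B also differed in opposite directions, and both missed the threshold. BMPR1A, the most abundant receptor gene of the list, was at 10.0, 10.7 and 9.11 FPKM in siC, against 8.30, 7.61 and 7.15 FPKM in siMSI1 (log2 fold change −0.37, adjusted p = 0.0232 in limma). BMPR1B was at 0.412, 0.578 and 0.694 FPKM in siC, against 1.10, 1.41 and 1.15 FPKM in siMSI1 (log2 fold change 1.01, adjusted p = 0.0204 in limma). Neither pair of groups overlapped, and BMPR1B rested on 39 to 66 reads in siC. ACVR1, a further BMP type I receptor, and ACVR1B, an activin type I receptor, had overlapping groups and log2 fold changes of −0.03 and −0.02, and BMPR2, the BMP type II receptor, had −0.19 with overlapping groups. ACVR2A, an activin type II receptor, was at 3.24 to 4.03 FPKM in siC and 4.23 to 4.97 FPKM in siMSI1 (log2 fold change 0.34, adjusted p = 0.0637 in limma).

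BAMBI, a decoy receptor without a kinase domain that dampens TGF-β and BMP signals, rose. It was at 2.34, 2.41 and 2.07 FPKM in siC, against 5.42, 5.47 and 5.12 FPKM in siMSI1, from 69 to 101 and 166 to 185 reads. All siMSI1 libraries lay above all siC libraries, at 235% of the siC mean. The log2 fold change was 1.20 (SE 0.0981, adjusted p = 0.000370 in limma). BAMBI lies on chromosome 10 (28677510 to 28682932, plus strand).

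**Figure D3:**
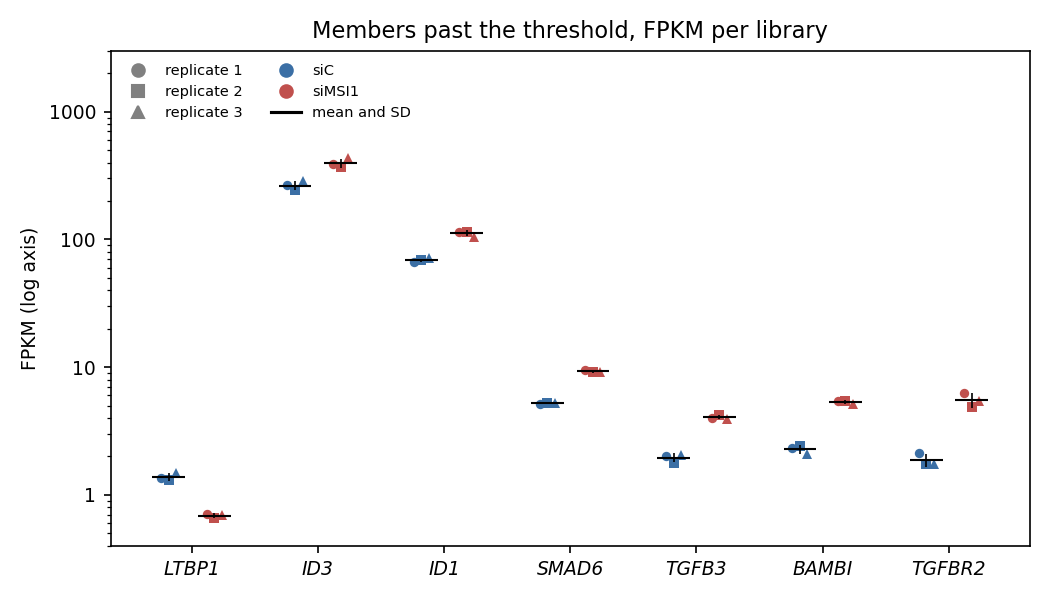
FPKM per library (y axis, log scale) of the 7 members past the threshold, ordered by log2 fold change, with siC in blue, siMSI1 in red, the replicate number as the symbol, and the mean and SD in black. In each gene the 3 siMSI1 values are apart from the 3 siC values, lower for LTBP1 (0.656 to 0.713 against 1.30 to 1.49 FPKM) and higher for the other 6.

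Among the 8 SMAD genes, all of which were tested, SMAD6 rose. SMAD6, an inhibitory SMAD that acts mainly on the BMP branch, was at 5.14, 5.25 and 5.27 FPKM in siC, against 9.55, 9.12 and 9.14 FPKM in siMSI1. The libraries of each group were close to each other, from 649 to 814 and 1024 to 1206 reads. The log2 fold change was 0.82 (SE 0.0693, adjusted p = 0.000420 in limma). SMAD6 lies on chromosome 15 (66702236 to 66782849, plus strand).

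SMAD7, the inhibitory SMAD that also blocks TGF-β receptors, was the most abundant SMAD and missed the threshold. It was at 20.1, 19.1 and 18.6 FPKM in siC, against 19.3, 19.0 and 18.5 FPKM in siMSI1. The groups overlapped, and the 95% confidence interval of the log2 fold change ran from −0.17 to 0.12. The ratio of SMAD6 to SMAD7 was 0.271 ± 0.0146 in siC and 0.491 ± 0.00833 in siMSI1 (SD, n = 3).

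The BMP receptor SMADs SMAD1 and SMAD9 were higher in all siMSI1 libraries but missed the threshold. SMAD9 was at 5.56, 5.97 and 4.92 FPKM in siC, against 7.92, 7.44 and 7.22 FPKM in siMSI1 (log2 fold change 0.45, adjusted p = 0.0118 in limma). SMAD1 was at 3.97, 4.21 and 3.91 FPKM in siC, against 5.25, 6.37 and 4.77 FPKM in siMSI1 (log2 fold change 0.42, adjusted p = 0.0349 in limma). SMAD5, the remaining BMP receptor SMAD, overlapped between groups (log2 fold change 0.05). The TGF-β receptor SMADs had log2 fold changes of −0.12 for SMAD2 and 0.06 for SMAD3, and the shared partner SMAD4 had −0.11. SMAD3 was at 12.2, 12.6 and 12.3 FPKM in siC, against 13.1, 12.6 and 12.8 FPKM in siMSI1, so that its groups were barely separate (95% confidence interval −0.09 to 0.20 on the log2 scale).

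The nuclear repressors SKI, SKIL and TGIF1 bind SMADs and recruit corepressors. TGIF1 was at 3.48, 3.68 and 3.35 FPKM in siC, against 4.61, 5.01 and 4.30 FPKM in siMSI1. Its groups were separate, and the log2 fold change of 0.39 missed the threshold (adjusted p = 0.0209 in limma). SKIL had 4.49 to 5.39 FPKM in siC and 5.73 to 6.56 FPKM in siMSI1 (log2 fold change 0.34, adjusted p = 0.0400 in limma). SKI, the most abundant of these repressors, overlapped between the groups at 6.97 to 7.64 and 7.31 to 8.11 FPKM.

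SMURF1 and SMURF2 are ubiquitin ligases that target SMADs and receptors for degradation. SMURF1 was at 9.46, 8.49 and 9.41 FPKM in siC, against 11.3, 10.8 and 11.8 FPKM in siMSI1. The groups did not overlap, and the log2 fold change of 0.31 missed the threshold (adjusted p = 0.0230 in limma). SMURF2 lay at 3.32 to 3.94 FPKM in siC and 3.02 to 4.19 FPKM in siMSI1, with overlapping groups.

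The ID proteins bind basic helix-loop-helix factors and keep them from DNA, which holds back differentiation. ID1 was at 67.1, 68.7 and 70.9 FPKM in siC, against 115, 115 and 105 FPKM in siMSI1. ID3, the most abundant gene of all 48, was at 264, 244 and 284 FPKM in siC, against 386, 367 and 432 FPKM in siMSI1. Both pairs of groups were separate, and both genes rose. The log2 fold change was 0.69 for ID1 (SE 0.0656, adjusted p = 0.000554 in limma) and 0.58 for ID3 (SE 0.0882, adjusted p = 0.00335 in limma). The ID3 call was lost without siC replicate 1, siC replicate 2 or siMSI1 replicate 1 (adjusted p = 0.0200, 0.0146 and 0.0105 in limma), while its fold change stayed positive.

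ID2 and ID4 missed the threshold. ID2 was at 64.1, 64.5 and 57.8 FPKM in siC, against 59.1, 61.8 and 56.2 FPKM in siMSI1, and its 95% confidence interval ran from −0.24 to 0.09 on the log2 scale. ID4 was at 46.4, 46.7 and 51.9 FPKM in siC, against 49.7, 59.1 and 47.1 FPKM in siMSI1, with an interval from −0.13 to 0.32. Both overlapped between the groups. ID1 and ID2 were at similar levels in siC, with a ratio of 1.11 ± 0.0995, and apart in siMSI1, with a ratio of 1.89 ± 0.0466 (SD, n = 3). The summed level of the 4 ID genes was 443 ± 20.7 FPKM in siC and 618 ± 19.8 FPKM in siMSI1 (SD, n = 3).

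**Figure D4:**
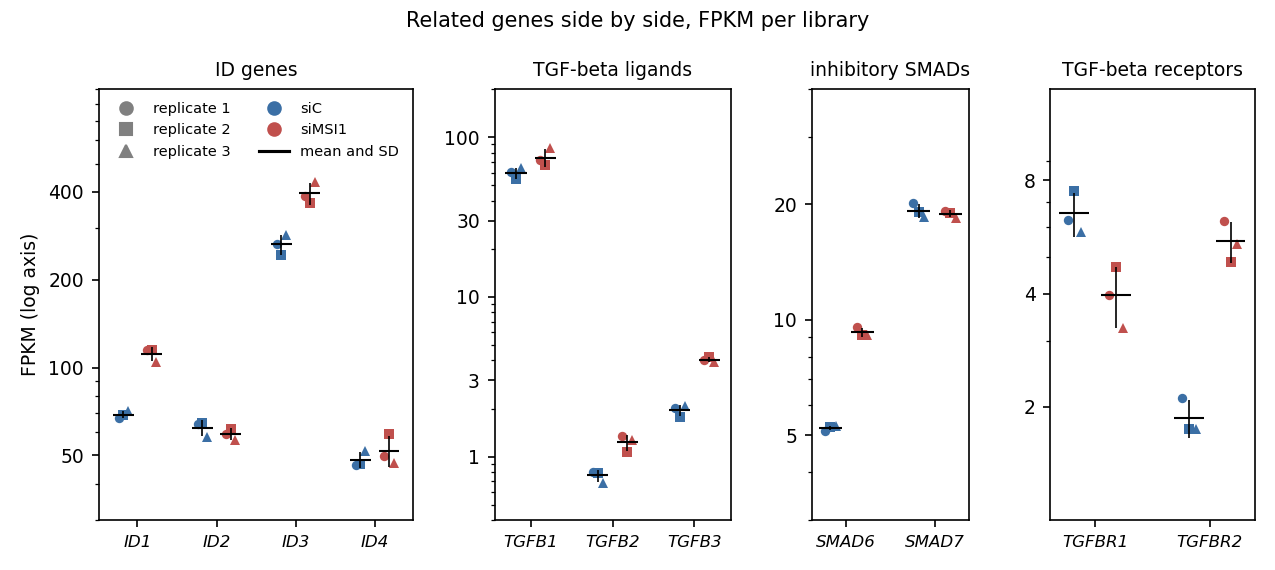
FPKM per library (y axes, log scale, a separate range in each panel) of the ID genes, the TGF-β ligands, the inhibitory SMADs and the TGF-β receptors, with siC in blue, siMSI1 in red, the replicate number as the symbol, and the mean and SD in black. ID1 and ID3 differ between groups while ID2 and ID4 overlap, and SMAD6 differs while SMAD7 overlaps. TGFBR1 lies above TGFBR2 in siC. In siMSI1, TGFBR2 lies above TGFBR1 in replicates 1 and 3 and close to it in replicate 2.

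The bases before the start of ID1, ID3, SMAD6 and BAMBI are printed here because these 4 genes are known to be induced by BMP or TGF-β and rose together. Each sequence holds the 250 bases before the RefSeq start on GRCh38.p14, 5′ to 3′ on the strand of the gene, with capitals marking motifs searched on both strands: CAGAC with its reverse complement GTCTG, the palindrome GGCGCC, and the longer palindrome GTCTAGAC, which was chosen after the sequences were seen. The letters of CAGAC or GTCTG are those of the SMAD binding element, GTCTAGAC is its palindromic form, and GGCGCC is the core of a GC-rich element bound by BMP SMADs.
ID1, chr20:31605039-31605288, plus strand: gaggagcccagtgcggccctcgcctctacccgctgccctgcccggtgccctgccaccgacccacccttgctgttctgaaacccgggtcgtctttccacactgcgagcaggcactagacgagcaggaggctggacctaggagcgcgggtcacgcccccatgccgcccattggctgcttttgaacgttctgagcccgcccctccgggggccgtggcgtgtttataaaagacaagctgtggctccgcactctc
ID3, chr1:23559502-23559751, minus strand: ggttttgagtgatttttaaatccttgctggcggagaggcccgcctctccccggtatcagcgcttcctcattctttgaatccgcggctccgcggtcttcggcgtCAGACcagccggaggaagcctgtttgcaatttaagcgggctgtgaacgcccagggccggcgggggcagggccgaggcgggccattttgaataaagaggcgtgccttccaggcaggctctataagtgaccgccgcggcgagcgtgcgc
SMAD6, chr15:66701986-66702235, plus strand: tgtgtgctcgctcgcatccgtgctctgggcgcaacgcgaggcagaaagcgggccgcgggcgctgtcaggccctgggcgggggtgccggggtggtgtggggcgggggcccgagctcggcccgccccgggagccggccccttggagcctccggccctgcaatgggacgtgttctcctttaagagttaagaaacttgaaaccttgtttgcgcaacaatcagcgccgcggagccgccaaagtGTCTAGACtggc
BAMBI, chr10:28677271-28677520, plus strand: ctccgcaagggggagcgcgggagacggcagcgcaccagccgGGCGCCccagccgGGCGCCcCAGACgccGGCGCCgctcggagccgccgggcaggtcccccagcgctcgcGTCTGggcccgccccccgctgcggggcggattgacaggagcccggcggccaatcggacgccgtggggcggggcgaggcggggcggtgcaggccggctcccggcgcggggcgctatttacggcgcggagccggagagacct

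BAMBI held 3 matches to GGCGCC, at 209, 196 and 181 bases before the start, 1 to CAGAC at 189 and 1 to GTCTG at 140. ID3 held CAGAC at 147 bases before the start, SMAD6 held GTCTAGAC at 12 bases before it, and ID1 held none of these letters in this window. Over all 35116 promoter windows of 300 bases in the RefSeq table, 45.3% held CAGAC or GTCTG, 19.2% held GGCGCC and 0.202% held GTCTAGAC. Windows were found for 44 of the 48 members (not for BMP2, BMP7, NOG and SKI). A gene can have several windows. Of the 82 windows of these members, 42 (51.2%) held CAGAC or GTCTG and 20 (24.4%) held GGCGCC. GTCTAGAC was held by 1 of them (1.22%), the window of SMAD6 already described. A match is a description of letters, and no binding was measured.

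MSI1 binds RNA at UAG words, with GUAG as a preferred form, so these words were counted in the longest annotated 3′UTR of each tested protein-coding gene. The 35 tested members had a median 3′UTR of 2968 bases, longer than the 1539 bases over 11281 genes. The density of GUAG was 2.12 per kb in the members and 2.38 per kb over all, and that of UAG was 12.4 and 11.3 per kb. At least 1 GUAG was present in 80.0% of the members and 83.1% of all. TGFB3, BAMBI, ID1 and ID3 had 0 GUAG in 3′UTRs of 515 to 1090 bases, whereas TGFBR2 had 6, SMAD6 had 3 and LTBP1 had 2. Among the members not past the threshold, LTBP3, LTBP4 and BMP4 also had 0, in 3′UTRs of 521, 268 and 368 bases. Word counts are not binding sites, and binding was not measured in these cells here.

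The 13 members below the test level were listed with few reads. BMP2 and FST had at most 1 read in any library, and BMP2 was listed at 0 in all siC libraries. INHBA and INHBB, the activin subunits, had 3 to 13 and 1 to 3 reads. NOG had 0 to 7 reads, CHRD 0 to 5, ENG 1 to 7 and TGFBI 1 to 8. BMP7 had 3 to 18 reads, BMP8B 4 to 21, LTBP2 18 to 38 and TGFBR3 11 to 48. INHBA was the 1 gene of these 12 whose groups did not overlap, at 0.0241 to 0.0333 FPKM in siC and 0.0336 to 0.106 FPKM in siMSI1. ACVR2B, an activin type II receptor just below the test level, was at 0.623, 0.635 and 0.600 FPKM in siC, against 0.276, 0.431 and 0.349 FPKM in siMSI1, from 64 to 181 reads. Its groups did not overlap, and when every detected gene was tested its log2 fold change was −0.68 (adjusted p = 0.129 in limma). The adjusted p-values of the other 12 genes in that fit lay between 0.298 and 0.976.

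A further list, also chosen with earlier results of these data known, held 90 other genes of the pathway: further ligands, antagonists, latency proteins, receptors and intracellular regulators. Of these, 46 were tested and 9 changed in limma (19.6%, beside 11.0% of all tested genes), 3 higher and 6 lower, with a median log2 fold change of −0.02. MSTN (myostatin), a ligand of activin type II receptors, rose from 0.331, 0.235 and 0.271 FPKM to 1.73, 1.43 and 1.33 FPKM (log2 fold change 2.08, SE 0.249, adjusted p = 0.00131 in limma). It rested on only 11 to 14 reads in siC, where its mean of 0.279 FPKM lay below the test level, so it entered the test through its siMSI1 values. Its adjusted p was 0.00307 in limma when every detected gene was tested, and the call was lost without siMSI1 replicate 1 (adjusted p = 0.0105 in limma). FSTL1, a secreted follistatin-like glycoprotein, rose from 43.97, 46.3 and 40.2 FPKM to 74.0, 72.6 and 68.8 FPKM (log2 fold change 0.72). TOB1, an antiproliferative protein that binds BMP SMADs, rose from 16.4, 17.8 and 16.4 FPKM to 29.0, 29.2 and 25.9 FPKM (log2 fold change 0.73). For all 3 genes the groups were separate.

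Of the 6 genes that fell, 5 were intracellular regulators, a role that held 25 of the 46 tested genes of this list. WWP2, a ubiquitin ligase that acts on SMADs, had the largest fall, from 6.86, 6.68 and 7.14 FPKM to 3.45, 3.77 and 3.92 FPKM (log2 fold change −0.88, SE 0.0853, adjusted p = 0.000593 in limma). MAP3K7 (TAK1), the kinase of the SMAD-independent branch, was at 14.1 FPKM in siC and 8.89 FPKM in siMSI1 on average (log2 fold change −0.66). FURIN, the protease that cleaves TGF-β and BMP precursors, was at 10.3 and 6.52 FPKM (log2 fold change −0.66). FKBP1A, which binds type I receptors and keeps them inactive, was at 93.3 and 66.7 FPKM (log2 fold change −0.48). HIPK2, a nuclear kinase, and USP9X, a deubiquitinase of SMAD4, fell by 0.45 and 0.43 on the log2 scale. The count of 9 was 4 without siC replicate 1, 6 without siC replicate 2, and 5 without siMSI1 replicate 1 or siMSI1 replicate 2, and it was 15 with voom. When each library was left out in turn, WWP2 was past the threshold in 6 of 6 fits, FURIN in 5, FKBP1A in 3, MAP3K7 and HIPK2 in 2 each, and USP9X in 0 (adjusted p = 0.0121 to 0.0458 in limma).

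Another list, likewise chosen with earlier results of these data known, held 42 genes known as transcriptional targets, apart from the members. Of these, 31 were tested and 9 changed in limma (29.0%, beside 11.0% of all tested genes), 5 higher and 4 lower, with a median log2 fold change of 0.03. The 22 tested TGF-β targets had a median of 0.13, and 5 of them changed (22.7%). CDKN1A, a cell cycle inhibitor, rose from 4.42, 2.81 and 3.33 FPKM to 7.32, 7.43 and 7.53 FPKM (log2 fold change 1.08, SE 0.152, adjusted p = 0.00251 in limma). LIF, a cytokine that maintains glioma stem-like cells, rose by 0.91 on the log2 scale, from 7.71 to 14.6 FPKM on average. COL4A1, a basement membrane collagen, rose by 0.39. COL4A2, also on this list, was lower in all siMSI1 libraries but missed the threshold (log2 fold change −0.24, adjusted p = 0.0610 in limma). The contractile genes TPM1 and ACTA2 fell by 0.68 and 0.61, ACTA2 from 67.2, 61.8 and 61.4 FPKM to 40.6, 37.0 and 47.7 FPKM. The TGF-β targets that changed thus did so in both directions. When each library was left out in turn, COL4A1 and ACTA2 were past the threshold in 1 of 6 fits each and CDKN1A in 3.

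The 9 tested BMP targets had a median of −0.01, and 4 of them changed (44.4%, beside 11.0% of all tested genes). Because of how the list was chosen, this share is no test of enrichment. ATOH8, a basic helix-loop-helix factor, rose from 2.94, 2.73 and 3.20 FPKM to 6.30, 5.94 and 5.90 FPKM (log2 fold change 1.01, SE 0.0935, adjusted p = 0.000531 in limma). MSX1, a homeobox factor, rose by 0.55 on the log2 scale, at an adjusted p-value of 0.00998 in limma that exceeded 0.01 when any library was left out. The homeobox genes DLX5 and DLX2 fell by 0.66 and 0.47, DLX5 from 103, 102 and 105 FPKM to 64.0, 63.9 and 68.4 FPKM. DLX5 was past the threshold in 6 of 6 fits that left out a library and DLX2 in 2 of them. Of the 31 tested targets of both kinds, 9 were past the threshold with all libraries, 5 without siC replicate 1, siC replicate 2 or siMSI1 replicate 1, and 4 without siC replicate 3 or siMSI1 replicate 2.

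**Figure D5:**
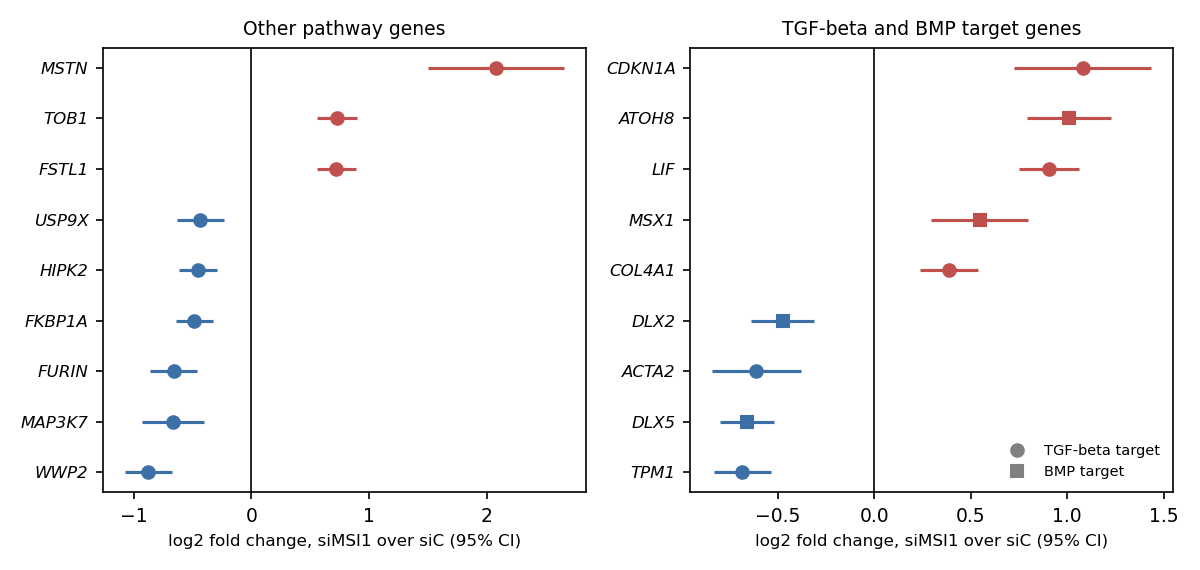
Log2 fold change (x axes, siMSI1 over siC, with the 95% confidence interval of limma as a bar) of the 9 other pathway genes (left) and the 9 target genes (right) that changed, with TGF-β targets as circles and BMP targets as squares. Red marks higher and blue lower, with 3 and 6 genes on the left and 5 and 4 on the right.

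Markers of cell types were read beside these changes. Of 8 glial or neural progenitor markers, 5 were tested and S100B, OLIG2 and ALDH1L1 were listed at 0. Their summed level, most of it VIM, was 1453, 1388 and 1446 FPKM in siC and 1162, 1186 and 1262 FPKM in siMSI1. In limma, SOX9 fell by 0.61 and GFAP rose by 1.46 on the log2 scale, GFAP from 1.33, 1.57 and 1.99 FPKM to 4.14, 4.65 and 5.04 FPKM. VIM, SOX2 and NES missed the threshold with log2 fold changes of −0.26, −0.23 and −0.16 (adjusted p = 0.0382, 0.0526 and 0.0944 in limma), and each was lower in all siMSI1 libraries. The markers of other cell types were low, and some of them differed between the groups. The 4 leukocyte markers summed to 0.322, 0.303 and 0.0504 FPKM in siC, against 0.161, 0.177 and 0.190 FPKM in siMSI1, with CD14 highest and AIF1 at 0, and the groups overlapped. The 4 endothelial markers summed to 0.262, 0.241 and 0.134 FPKM in siC, against 0.290, 0.312 and 0.442 FPKM in siMSI1, so that all siMSI1 sums were higher. VWF was the highest of them in siC (mean 0.187 FPKM) and CDH5 in siMSI1 (0.166 FPKM, against 0.0167 FPKM in siC). The values of CDH5 and PECAM1 did not overlap between the groups but rested on few reads. These were 0 to 3 in siC against 9 to 22 in siMSI1 for CDH5, and 0 to 1 against 5 to 8 for PECAM1. Neither passed the threshold when every detected gene was tested (adjusted p = 0.104 and 0.121 in limma). The 4 fibroblast or pericyte markers summed to 4.48, 3.37 and 2.27 FPKM in siC, against 2.26, 2.64 and 3.47 FPKM in siMSI1, mostly COL1A1, and these sums overlapped, while PDGFRB was higher in all siMSI1 libraries. The 3 neuronal markers summed to 4.62, 4.59 and 3.91 FPKM in siC, against 3.82, 3.497 and 3.39 FPKM in siMSI1, mostly SYT1 with RBFOX3 at 0, and all siMSI1 sums were lower. The part of these marker shifts in the changes of the TGF-β and BMP genes was not tested.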

How the data were processed

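PolyA RNA of 3 siC and 3 siMSI1 libraries of KNS42 cells was sequenced after strand-specific preparation. The submitters' processing notes name Cutadapt 1.14, HISAT2 2.1.0, SAMtools 1.5, featureCounts 1.5.3 and edgeR 3.18.1, with the build hg38. The authors deposited FPKM values per gene and library with a gene length, and their own log2 fold changes, p-values and false discovery rates, which were not used. All 6 columns of library values were used.

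Each FPKM was multiplied by its gene length and expressed in units of 1 read of the library, which gave whole reads (within 0.01 read) for every value above 0, and hence the depth. The library size behind the FPKM was 0.977 to 1.03 times the sum of these reads. For a gene of 2 kb, 3 reads amount to 0.0829 to 0.114 FPKM in these libraries, a floor that covers counting error only. limma 3.58.1 in R 4.3.3 (lmFit, eBayes with trend and robust) was run on log2(FPKM + 0.1), an added value that understates changes of low genes. Genes with a mean of at least 0.5 FPKM were tested, without a block, at an adjusted p-value of 0.01 (Benjamini-Hochberg over all tested genes), the threshold of the study. The 48 members and the lists (other pathway genes, targets, cell type markers) were chosen with earlier results of these data known. Genes named in full are MSI1, all members past the threshold, the most abundant and the most changed tested member of each role, and, of the other lists, up to 4 largest falls and 4 largest rises past the threshold. HIPK2, USP9X, COL4A1, COL4A2 and the remaining members were added after their values were seen. Alternatives were added values of 1 and 0.01, no filter, a mean of at least 1 FPKM, median centring, quantile normalization, plain eBayes, voom on recovered reads, the replicate block, an adjusted p-value of 0.05 and leaving out each library. On simulated data for siMSI1 against siC with 15115 tested genes, limma called 6 of 49 genes changed 1.5-fold, 29 of 50 changed 2-fold, 40 of 49 changed 3-fold, 42 of 44 changed 4-fold, and 3 of 14923 unchanged genes. The simulation gave every gene the same dispersion, drew the libraries independently and changed few genes. Its counts therefore do not give the rates of true and false calls in the real data. Positions, overlaps and 3′UTRs of at least 30 bases came from GENCODE release 44 on GRCh38, promoters from RefSeq on GRCh38.p14. Python 3.11.15 with pandas 2.3.3 and matplotlib 3.10.9 made the summaries and figures.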

Additional observations from a re-analysis of the deposited data

How the results depend on the processing

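TGFBR2, BAMBI, TGFB3, SMAD6 and ID1 were past the threshold in all 15 alternative fits, while LTBP1 and ID3 were lost in some. LTBP1 was also lost without the filter on low values (adjusted p = 0.0147 in limma) and ID3 without it (0.0109) and with plain eBayes (0.0145). The count of all genes past the threshold moved from 1655 to 792 without the filter, 847 with plain eBayes, 2690 with voom and 3787 at an adjusted p of 0.05. When 1 library was left out, it lay between 528 (without siC replicate 1) and 1603 (without siMSI1 replicate 3), and the next highest count was 888. For the members, 7 became 15 with voom and 19 at 0.05, and 5 to 6 without 1 library. For the other pathway genes, 9 became 15 with voom and 17 at 0.05, and 4 to 10 without 1 library. For the target genes, 9 became 4 without the filter and 4 with plain eBayes, and 4 to 9 without 1 library. The causes of these shifts were not tested.

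The labels do not say whether same-numbered libraries belong together, and the main fit had no block. Deviations from the group means of same-numbered libraries correlated with r = −0.0661, 0.0783 and 0.0830 over genes. For differently numbered libraries r ran from −0.144 to 0.0700. With 3 libraries per group, such low correlations cannot exclude a pairing. With the replicate block the counts were 2250 for all genes, 11 for the members (10 higher, 1 lower, 6 of them shared with the 7 of the unblocked fit), 16 for the other pathway genes and 10 for the target genes. Under the block LTBP1 was lost (adjusted p = 0.0156 in limma) and TGFB1, LTBP3, LTBP4, TGFBR1 and SMAD9 passed (0.00905, 0.00393, 0.00431, 0.00229 and 0.00796).

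Over 58 named genes and 867 values, 757 kept direction and side of the threshold, 83 were no longer past it, 17 newly passed it and 10 changed sign. The sign changes were all in members that missed the threshold, and all came from leaving out 1 library, over which the log2 fold change ran from −0.143 to 0.0223 for GREM1, −0.0734 to 0.0124 for ACVR1, −0.112 to 0.0576 for ACVR1B, −0.0183 to 0.116 for SMAD5, −0.0527 to 0.00514 for SMAD7 and −0.0509 to 0.178 for SMURF2. The 13 members under 0.5 FPKM had at most 181 reads in any library.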
